A study of Mus musculus with 6 samples.

Results

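The osteocalcin gene cluster of the mouse, a tandem group made of Bglap, Bglap2 and Bglap3, was examined in basal keratinocytes of the embryonic skin. The 3 members were found by symbol among 55536 gene identifiers listed in the count table, of which 20622 passed the filter on low counts and were tested. The cluster was chosen by its readout, because Bglap3 was higher in knockout than in control libraries, so the values of Bglap3 in that contrast are given as a description and without a test. 2 of the 3 members, Bglap3 and Bglap, passed the filter, and Bglap2 did not.

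Osteocalcin, also called bone Gla protein, is a small protein that osteoblasts secrete into the bone matrix. An enzyme that needs vitamin K adds carboxyl groups to some of its glutamates, and the modified residues bind calcium and the mineral of bone. In mice, Bglap and Bglap2 are the copies known for expression in bone, and Bglap3, also called osteocalcin-related gene, is known from tissues outside bone such as kidney.

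The samples were cells positive for Epcam and α6 integrin, sorted from the back skin of E16.5 embryos and measured by bulk RNA-seq after depletion of ribosomal RNA, with 3 Ctrl and 3 TKO libraries. The TKO genotype was Suv39h1 f/f, Suv39h2-/-, Setdb1 f/f with K14CreERT2+, a recombinase that is driven by a keratin promoter of basal keratinocytes and becomes active on tamoxifen, and its targets are methyltransferases that place the repressive mark H3K9me3 on histones. Ctrl embryos had the same alleles but were K14CreERT2-, so both groups were Suv39h2-/- and both received tamoxifen. The litters used for bulk RNA-seq are listed by the study as mosaic, which means that part of the basal cells kept the mark. The library names carry the letter F for Ctrl replicate 1 and TKO replicate 2 and M for the other 4 libraries, and Xist, the RNA of the inactive X chromosome, was at 2638 and 2699 CPM in those 2 libraries and between 0.238 and 0.799 CPM in the other 4. CPM are counts per 1000000 of the library size after TMM scaling.

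Sequencing depth, as the total of gene counts, was 102159175, 136515436 and 104422632 in Ctrl replicates 1, 2 and 3, and 116308383, 108957256 and 118413082 in TKO replicates 1, 2 and 3. A count of 3, the upper limit that a count of 0 allows, was worth between 0.0232 and 0.0303 CPM. Pearson's r between any pair of libraries lay between 0.973 and 0.983 across tested genes, which are not independent replicates. All 10 basal keratinocyte markers passed the filter, led by the keratin Krt5 at a mean of 9433 CPM. Setdb1, the floxed methyltransferase gene, was at 125.5, 117.9 and 121.1 CPM in Ctrl replicates 1, 2 and 3 and at 95.3, 62.3 and 74.9 CPM in TKO replicates 1, 2 and 3. The groups did not overlap, and the log2 fold change of Setdb1 was -0.65 ± 0.161 (SE), with an adjusted p of 0.286 by edgeR's quasi-likelihood test and 0.0449 by DESeq2. Suv39h1 and Suv39h2, whose counts do not separate deleted from intact exons, had log2 fold changes of -0.10 and 0.11 with overlapping groups.

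The members lie on the minus strand of chromosome 3 in GRCm39, where the cluster spans 15849 bases. Bglap3 (ENSMUSG00000074489) is at chr3:88275923-88280052, Bglap2 (ENSMUSG00000074486) at chr3:88285043-88286060 and Bglap (ENSMUSG00000074483) at chr3:88290808-88291771, with gaps of 4990 and 4747 bases between them. The annotation gives Bglap3 a short protein-coding transcript, Bglap3-201, of 4 exons and 723 bases, and 3 longer ones that start further upstream, Bglap3-202, Bglap3-203 and Bglap3-206, of 2059, 1049 and 3116 bases. Bglap2-201 and Bglap-201, the protein-coding transcripts of the other members, have 525 and 440 bases in 4 exons each.

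The promoter of Bglap and those of Bglap3 are shown because the copies share most of their coding sequence and differ in what lies upstream. Each sequence is from RefSeq in GRCm38.p6, minus strand, from 250 bases before to 50 bases after an annotated start. The 3 windows are chr3:88384417-88384716 for Bglap, chr3:88372692-88372991 for the upstream start of Bglap3 and chr3:88369782-88370081 for its downstream start. Capitals mark the motifs searched for on both strands. The TATA box was searched as TATAAAA and, with another last base, as TATAAAT, and its alternating form as TATATAA and, with another last base, as TATATAT. The CCAAT box was searched by these letters, the Runx site by the letters ACCACA and the Atf4 site of the osteoblast-specific element by the letters TTACATCA.
Bglap: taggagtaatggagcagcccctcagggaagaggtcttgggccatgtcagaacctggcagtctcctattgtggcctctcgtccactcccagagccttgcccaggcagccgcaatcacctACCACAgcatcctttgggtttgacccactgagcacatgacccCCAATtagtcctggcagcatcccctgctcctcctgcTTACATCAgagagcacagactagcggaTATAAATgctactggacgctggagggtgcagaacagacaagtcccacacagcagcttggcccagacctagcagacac
Bglap3, upstream start: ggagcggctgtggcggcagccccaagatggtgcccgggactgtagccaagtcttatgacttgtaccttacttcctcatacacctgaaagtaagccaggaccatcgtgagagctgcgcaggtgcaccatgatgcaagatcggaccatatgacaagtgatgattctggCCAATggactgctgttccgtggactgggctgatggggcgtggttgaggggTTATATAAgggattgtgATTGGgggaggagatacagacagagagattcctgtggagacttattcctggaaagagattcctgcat
Bglap3, downstream start: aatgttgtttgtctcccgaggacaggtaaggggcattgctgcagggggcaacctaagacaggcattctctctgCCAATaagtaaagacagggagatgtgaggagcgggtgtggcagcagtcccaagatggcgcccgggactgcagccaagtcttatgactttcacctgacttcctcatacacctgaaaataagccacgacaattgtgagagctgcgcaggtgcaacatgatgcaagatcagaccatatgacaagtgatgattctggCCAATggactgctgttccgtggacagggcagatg

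The Bglap window held each of the 4 kinds of letters. The last 40 bases of the window at the upstream start of Bglap3 were found in Bglap3-202, Bglap3-203 and Bglap3-206, and those of the downstream window in Bglap3-201. The upstream window held TATATAA overlapping its own reverse complement and 2 CCAAT boxes, and the downstream window held 2 CCAAT boxes. Neither held the Runx or the Atf4 letters, and a further RefSeq window of Bglap3 between them held only a CCAAT box. Of 32851 windows of the same length over the genome, 12.45% held a TATA box, 37.41% a CCAAT box, 16.76% the Runx letters and 1.105% the Atf4 letters. These matches describe the letters and not bound sites.

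The upstream and downstream windows of Bglap3 resembled each other over most of their length. In a local alignment, bases 1 to 200 of the upstream window and bases 101 to 300 of the downstream window were identical at 184 of 200 columns (92%). The Bglap window aligned with the Bglap3 windows only over stretches of 47 to 199 columns, at 57.8% to 68.1% identity. Exact words of 31 bases were then counted over GRCm39 on both strands. In the downstream window a word was found at a median of 3 places and at most at 524, and in the upstream window at a median of 1 and at most at 76. A median of 3 or more was found in 5.26% of 32843 windows. In the Bglap window no word was found at more than 3 places.

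Bglap3 took the most counts of the 3 members in 5 of 6 libraries, and its level was higher in each TKO library than in any Ctrl library. Its counts were 41, 22 and 19 in Ctrl replicates 1, 2 and 3 and 184, 244 and 58 in TKO replicates 1, 2 and 3. On the CPM scale these were 0.414, 0.170 and 0.176 in Ctrl and 1.56, 2.21 and 0.477 in TKO. The groups did not overlap, although TKO replicate 3 was only 1.15 times as high as Ctrl replicate 1. Exact Poisson 95% intervals, which cover counting error only, were 44.0 to 75.0 counts for TKO replicate 3 and 29.4 to 55.6 for Ctrl replicate 1, and these overlap.

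The mean level of Bglap3 was 0.254 ± 0.139 CPM (SD, n = 3) in Ctrl and 1.42 ± 0.876 CPM (SD, n = 3) in TKO, a ratio of 5.59. The log2 fold change fitted across all genes was 2.48 ± 0.643 (SE), and it ranked 176 among 20622 genes, at the percentile 99.1. Within the TKO group, the highest library was 4.63 times the lowest, and within Ctrl the highest was 2.43 times the lowest. The ratio of TKO to Ctrl was 5.34 between the 2 F libraries and 5.89 between the means of the M libraries. By replicate number, the ratio was 3.78, 13.0 and 2.71 for numbers 1, 2 and 3. By mean CPM, Bglap3 stood at the percentile 16.0 of tested genes in Ctrl and 35.6 in TKO, so it was a gene of low level in both groups.

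Bglap, a copy known from bone, was detected at a few counts in both groups. Its counts were 10, 4 and 27 in Ctrl replicates 1, 2 and 3 and 18, 23 and 13 in TKO replicates 1, 2 and 3. The TKO values lay inside the range of the Ctrl values, within which the highest CPM was 8.09 times the lowest. The mean was 0.127 ± 0.112 CPM (SD, n = 3) in Ctrl and 0.156 ± 0.0508 CPM (SD, n = 3) in TKO. The log2 fold change of 0.29 ± 0.943 (SE) had an adjusted p of 0.9998 by edgeR's quasi-likelihood test, with 20622 genes in the adjustment. Its direction depended on a single library, since it was -0.17 without Ctrl replicate 2. The difference between the fold changes of Bglap3 and Bglap was not tested.

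Bglap2, the other copy known from bone, had 1, 0 and 1 counts in Ctrl replicates 1, 2 and 3 and 0 counts in each TKO library. Both groups were under the floor of 3 counts per library, so no fold is given and a difference was not detectable from these counts.

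**Figure D1:**
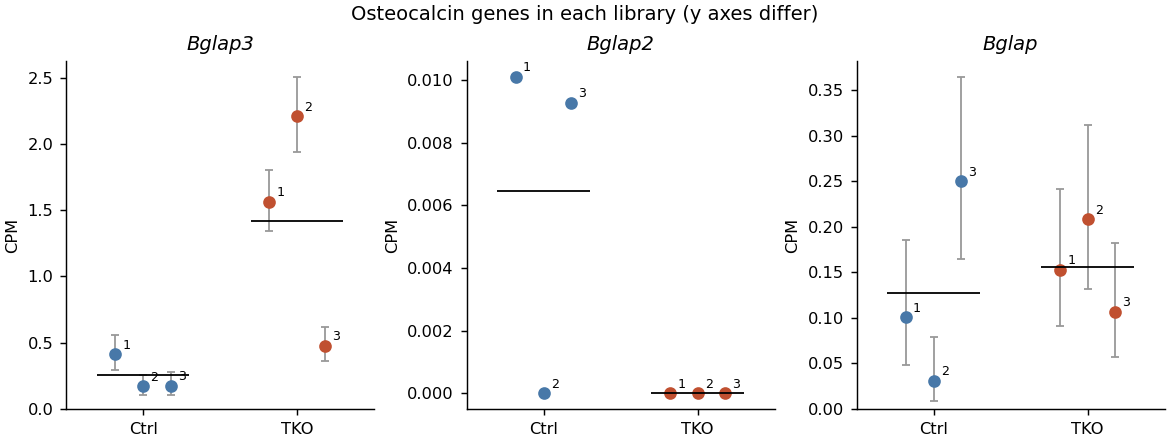
CPM of Bglap3, Bglap2 and Bglap in the 3 Ctrl and 3 TKO libraries, with replicate numbers beside the points, group means as horizontal lines and exact Poisson 95% intervals of the counts as grey bars for Bglap3 and Bglap; the y axes differ. For Bglap3 the TKO libraries sit at 0.477 to 2.21 CPM and the Ctrl libraries at 0.170 to 0.414, while for Bglap the groups overlap.

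Over all tested genes, 27 were called higher in TKO (0.131% of 20622) and 0 lower (0%) by edgeR, where a call needed an adjusted p under 0.05 together with a log2 fold change above 1 or below -1. At an unadjusted p under 0.05, edgeR had 837 genes higher and 416 lower, and DESeq2 called 193 higher and 21 lower at the same thresholds as edgeR. With the replicate number as a block, edgeR called 44 higher and 1 lower, 45 in all. Bglap was not among the 27 genes, and Bglap3, chosen on this contrast, is given without a test. The groups did not overlap for 1310 genes higher in TKO (6.35% of those tested) and 1054 lower (5.11%). Bglap3 was 1 of the former, from which nothing is read since its choice used these values. The p-values measure the spread between these libraries, which were labelled as replicates.

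The counts of the members are uncertain, because the short transcripts of the copies are nearly identical where they align. Bglap3-201 was identical to Bglap2-201 at 97.7% of 480 aligned columns and to Bglap-201 at 96.4% of 439, and Bglap2-201 to Bglap-201 at 98.9% of 439. Of the distinct 31-base words in all transcripts of a member, 19.4% of 3767 for Bglap3, 86.7% of 495 for Bglap2 and 62.9% of 588 for Bglap were also in transcripts of another gene. Bglap3 shared 6.77% of its words with Bglap2 and 5.2% with Bglap, and its shared words were in transcripts of 50 other genes. Bglap2 shared 51.5% of its words with Bglap3 and 66.7% with Bglap. Bglap shared 33.3% of its words with Bglap3 and 56.1% with Bglap2. Words at 0 places in the genome, as most words over exon junctions are, were left out of the next shares. Words found once in the genome made up 50.5% of Bglap3-201, 15.3% of Bglap2-201 and 24.5% of Bglap-201. All these shares are of 31-base words. The study sequenced paired ends, and the share of its reads that fit several places was not measured. The counting program and its treatment of reads that fit several places are not given in the sources used here, so neither the split between the members nor the number of reads left out is known.

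**Figure D2:**
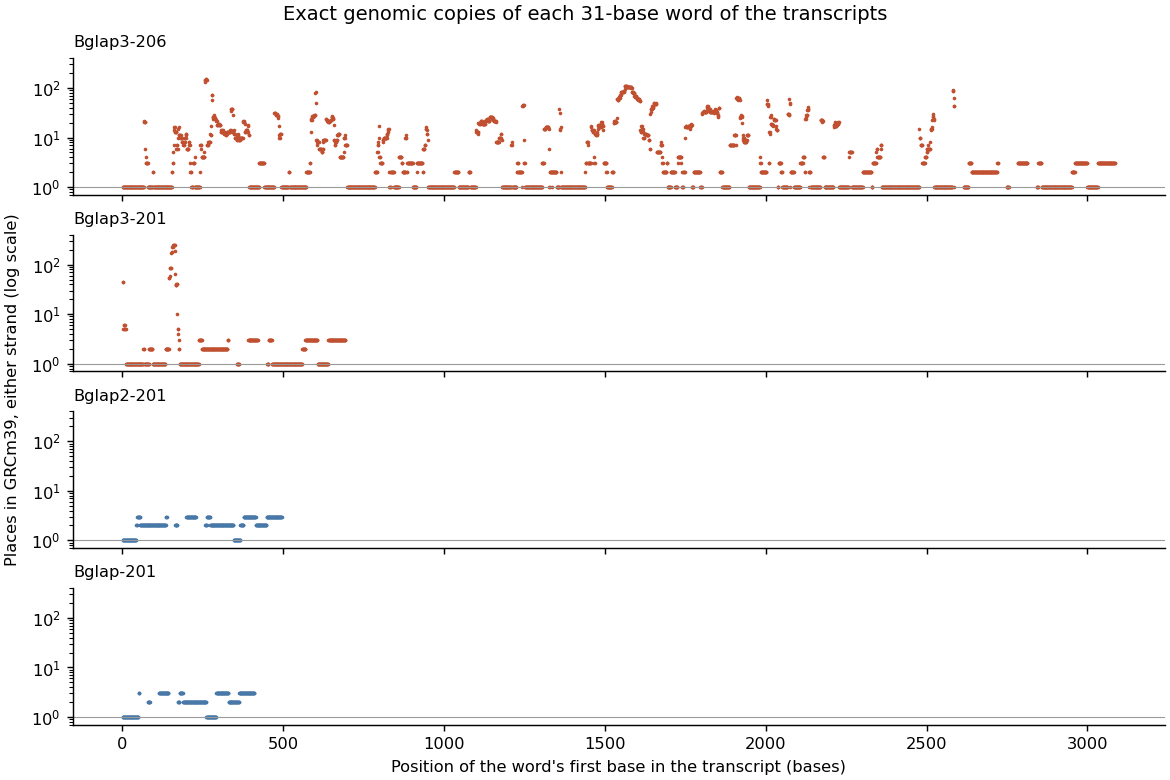
Number of places in GRCm39, on a log axis, that hold each exact 31-base word along Bglap3-206, Bglap3-201, Bglap2-201 and Bglap-201, by the position of the word's first base; words at 0 places, as most words over exon junctions are, are left out. Bglap2-201 and Bglap-201 run mostly at 2 or 3 places, while Bglap3-201 reaches 254 places and Bglap3-206 148.

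The summed counts of the 3 members were 52, 26 and 47 in Ctrl replicates 1, 2 and 3 and 202, 267 and 71 in TKO replicates 1, 2 and 3. The sum does not depend on how reads were split between the members. It still depends on whether reads that fit several places were left out or counted at each place, which is not known. The log2 fold change of the sum was 2.02 ± 0.596 (SE), also given without a test since the sum holds Bglap3. The share of Bglap3 in the sum was 78.8% (Wilson 95% interval 66.0 to 87.8), 84.6% (66.5 to 93.9) and 40.4% (27.6 to 54.7) in Ctrl replicates 1, 2 and 3. In TKO replicates 1, 2 and 3 it was 91.1% (86.4 to 94.3), 91.4% (87.4 to 94.2) and 81.7% (71.2 to 89.0). These intervals also cover counting error only. The share was lowest in Ctrl replicate 3, the library with the most Bglap counts.

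Per kilobase of exon, the order of Bglap3 and Bglap turned with the length used. Over all annotated exons, 3690 bases for Bglap3 and 618 for Bglap, the mean level in Ctrl was 0.0687 CPM per kb for Bglap3 and 0.206 for Bglap, and in TKO 0.384 for Bglap3 and 0.252 for Bglap. With the 723 bases of Bglap3-201, the level of Bglap3 was 0.351 CPM per kb in Ctrl and 1.96 in TKO, above Bglap in both groups. The table holds a single count per gene, so which Bglap3 transcript was present was not measured.

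The genes around the cluster were not called. Within 100 kb of the cluster, 17 other genes were listed and 11 tested, of which 0 were called in either direction beside 0.131% of all genes called higher. Their median log2 fold change was -0.03, beside 0.01 for all genes tested. All 4130 bases of Bglap3 lie inside Paqr6, a gene of the progestin and adipoQ receptor family on the plus strand at chr3:88271325-88284959, and no exon of the one overlaps an exon of the other. Paqr6 was at 0.777, 0.457 and 0.334 CPM in Ctrl replicates 1, 2 and 3 and at 0.493, 0.543 and 0.929 in TKO replicates 1, 2 and 3. Its groups overlapped, with a log2 fold change of 0.33 ± 0.507 (SE), and its order over the TKO libraries differed from that of Bglap3, since Paqr6 was highest and Bglap3 lowest in replicate 3. Whether the counting used the strand is not given in the sources used here, so reads from introns of Paqr6 cannot be told apart from reads of Bglap3.

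Among the other neighbours, Sema4a, a semaphorin, stood at a log2 fold change of 0.34 (edgeR, adjusted p = 0.813) with groups that did not overlap. Gm37116, a pseudogene of few counts, stood at -1.70 on the same scale (edgeR, adjusted p = 0.912), also without overlap. These were 1 of 11 higher and 1 of 11 lower without overlap, beside 6.35% and 5.11% of all genes. The log2 fold changes of the protein-coding genes Tsacc, Cct3 (a chaperonin subunit), Glmp, Tmem79, Smg5 (a factor of nonsense-mediated decay), Pmf1 (a kinetochore protein), Slc25a44 and Lmna (the nuclear lamins A and C) were 0.26, -0.21, -0.03, -0.31, 0.10, 0.29, -0.06 and -0.27. Gm38392, listed as protein-coding, and the pseudogenes Gm21956 and Gm6821, which lie between the members, did not pass the filter.

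**Figure D3:**
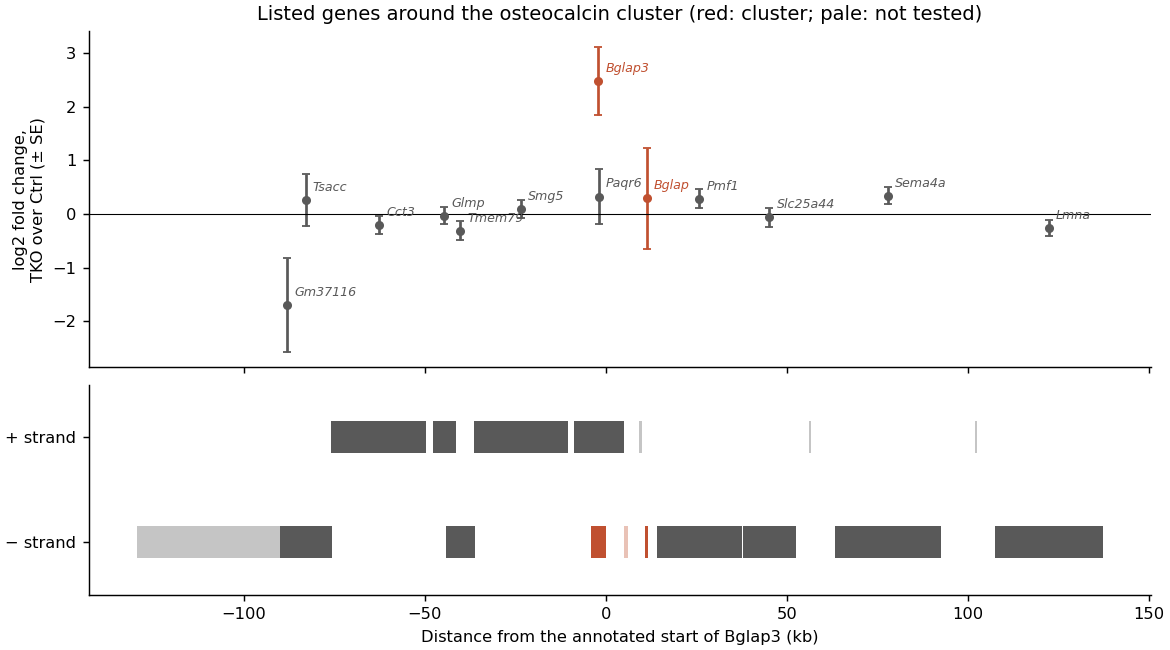
Listed genes within 100 kb of the cluster by distance from the annotated start of Bglap3 in kb, with the log2 fold change of TKO over Ctrl (± SE) of each tested gene above and the extent of the genes on each strand below. Bglap3 stands at 2.48 and Bglap at 0.29, and the 11 tested neighbours lie between -1.70 and 0.34.

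Genes that act with osteocalcin were taken from lists by role. Of 20 genes of the vitamin K cycle and of proteins with Gla residues, 13 were tested and 0 called in either direction, near the background of 0.131% higher and 0% lower over all genes, with a median log2 fold change of -0.05 beside 0.01 for all genes. Ggcx, the carboxylase that makes Gla residues, was at 15.6 ± 0.00476 CPM (SD, n = 3) in Ctrl and 15.7 ± 2.52 CPM (SD, n = 3) in TKO. Vkorc1, the reductase that recycles vitamin K, had the lowest log2 fold change of the list, -0.69 ± 0.872 (SE), with overlapping groups. Vkorc1l1, the paralogue of Vkorc1, was at 75.3 ± 2.71 CPM (SD, n = 3) in Ctrl and 69.3 ± 2.23 CPM (SD, n = 3) in TKO. Its groups did not overlap, with a log2 fold change of -0.12 (edgeR, adjusted p = 0.9998), and it was the 1 gene of the 13 without overlap, beside 5.11% lower over all genes. The highest log2 fold change of the list was that of Pros1, protein S of the anticoagulant system, at 0.71 ± 0.297 (SE) with overlapping groups and an adjusted p of 0.782 by edgeR. Aifm2, a reductase that can also act on vitamin K, and Prrg4, a membrane protein with a Gla domain, came next at 0.54 and 0.40. Mgp, matrix Gla protein, and Gas6, a ligand of TAM receptors, had log2 fold changes of -0.24 and -0.18.

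Of 24 regulators known from the osteocalcin promoter, 23 were tested and 0 called, again near the background of 0.131%, with a median log2 fold change of -0.03. Runx2, the transcription factor that binds the osteocalcin promoter in osteoblasts, was at 9.70, 12.1 and 17.9 CPM in Ctrl replicates 1, 2 and 3 and at 17.1, 20.6 and 21.9 CPM in TKO replicates 1, 2 and 3. The groups overlapped, and the log2 fold change of 0.59 ± 0.23 (SE), the highest of the list, had an adjusted p of 0.736 by edgeR. Tle1, a corepressor, and Trps1, a repressor of the GATA family, followed at 0.48 and 0.39. The groups of Trps1 did not overlap (edgeR, adjusted p = 0.736), and it was the 1 gene of the 23 without overlap, beside 6.35% higher over all genes. The lowest were Sp7, the osteoblast factor osterix, at -1.82 ± 1.02 (SE), Msx1, a homeobox factor, at -0.54 and Atf4 at -0.31. Sp7 had 85 counts in Ctrl replicate 3 and between 6 and 20 in the other libraries. Vdr, the vitamin D receptor, had a log2 fold change of -0.15 with overlapping groups.

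Of the receptors proposed for osteocalcin, Gpr37 was at 2.35 ± 0.897 CPM (SD, n = 3) in Ctrl and 3.09 ± 0.455 CPM (SD, n = 3) in TKO, with overlapping groups. Gprc6a and Gpr158 had at most 7 counts in any library and were not tested.

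Of 20 other genes of the osteoblast lineage, 15 were tested and 0 called, which at a background of 0.131% is no result about these genes, and the median log2 fold change was -0.03. Spp1, which encodes the matrix protein osteopontin, had the highest at 1.15 ± 1.19 (SE), from 18, 117 and 1 counts in Ctrl and 27, 215 and 34 in TKO. Runx2 and the ligand Bmp4 came next at 0.59 and 0.20. Sp7, Phex, an endopeptidase of bone, and Smpd3, a sphingomyelinase, were lowest at -1.82, -1.04 and -1.02. Mepe, a matrix protein of osteocytes, was at 0 counts in all 6 libraries, and Dmp1, also of osteocytes, had 1 count in Ctrl replicate 3 and 0 elsewhere. Alpl, the alkaline phosphatase of mineralizing cells, had groups that did not overlap, lower in TKO, with a log2 fold change of -0.56, and was the 1 gene of the 15 without overlap, beside 5.11% lower over all genes.

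The osteoblast list summed to 1132, 2799 and 2561 CPM in Ctrl replicates 1, 2 and 3 and to 1785, 2168 and 2610 CPM in TKO replicates 1, 2 and 3, led by the collagen Col1a1, which fibroblasts also express. The sums overlapped between the groups. The dermal fibroblast list, with 8 of 8 tested, 0 called (background 0.131%) and a median log2 fold change of -0.14, summed to 1710, 4315 and 3563 CPM in Ctrl and 2829, 2933 and 3245 in TKO. In bulk samples, a change in the number of cells of a type and a change in RNA per cell cannot be told apart.

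**Figure D4:**
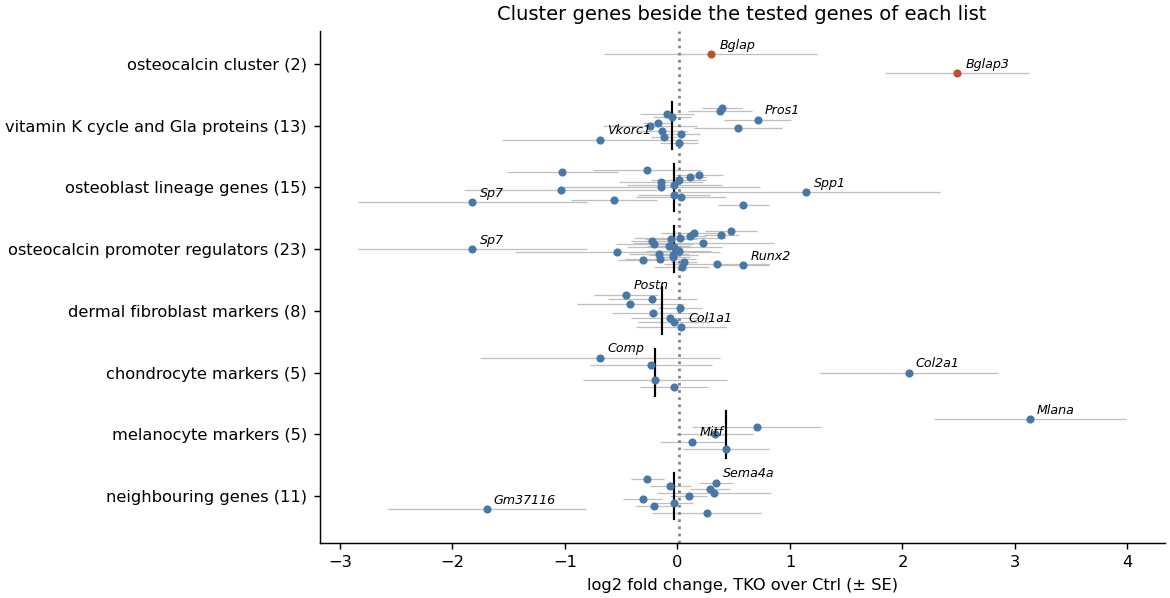
Log2 fold change of TKO over Ctrl (± SE) of the 2 tested members, in red, and of each tested gene in the lists of related and cell type genes, with list medians as black lines, the number tested in brackets and the median of all genes, 0.01, as a dotted line. Bglap3, chosen because it was higher in TKO, is at 2.48, and the highest values of the chondrocyte and melanocyte lists are 2.05 for Col2a1 and 3.13 for Mlana.

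Col2a1, Matn1 and Mlana are single markers of other cell types, named after their values were seen. They had their highest values in TKO replicates 2 and 1, as Bglap3 had, while none of the other genes of their lists did. The order was not particular to them, since Dst, a basal keratinocyte marker, and Pros1 and Prrg4 of the vitamin K list also had it. Col2a1, the collagen of cartilage, had 8, 12 and 19 counts in Ctrl replicates 1, 2 and 3 and 64, 89 and 14 in TKO replicates 1, 2 and 3, and its log2 fold change was 2.05 (edgeR, adjusted p = 0.736). Matn1, also of cartilage, had 3, 0 and 0 counts in Ctrl and 16, 72 and 0 in TKO. Col9a1, another gene of the chondrocyte list, had 5, 0 and 29 counts in Ctrl and 34, 4 and 4 in TKO. Neither Matn1 nor Col9a1 passed the filter. The log2 fold changes of the other tested chondrocyte genes, Sox9, Acan, Col11a2 and Comp, were -0.03, -0.20, -0.23 and -0.69, and Sox9 and Acan were highest in TKO replicate 3. The chondrocyte list as a whole, with 5 of 7 tested, 0 called (background 0.131%) and a median log2 fold change of -0.20, summed to 58.0, 55.2 and 64.3 CPM in Ctrl and 35.3, 49.6 and 89.0 in TKO, led by Sox9. Mlana, a melanocyte gene, had 14, 2 and 18 counts in Ctrl and 117, 169 and 37 in TKO, and its log2 fold change was 3.13 (adjusted p = 0.360 by edgeR and 0.0206 by DESeq2). The log2 fold changes of Tyr, Dct, Pmel and Mitf, the other melanocyte genes, were 0.70, 0.43, 0.33 and 0.13 with overlapping groups. The melanocyte list, with 5 of 5 tested, 0 called by edgeR (background 0.131%) and a median of 0.43, summed to 6.62, 10.1 and 12.0 CPM in Ctrl and 11.4, 12.9 and 13.5 in TKO, led by Mitf. The part of such cells in the level of Bglap3 was not tested.

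The endothelial list, with 5 of 5 tested, and the immune list, with 4 of 6 tested, had 0 genes called, beside the background of 0.131%. The log2 fold change was positive in 5 of 5 endothelial genes, with a median of 0.76, and in 4 of 4 immune genes, with a median of 0.21. The endothelial sums were 26.0, 26.0 and 36.0 CPM in Ctrl and 24.4, 62.4 and 50.6 in TKO, and the immune sums 19.9, 27.2 and 12.3 in Ctrl and 8.03, 47.1 and 14.9 in TKO. Both were highest in TKO replicate 2, the library with the most Bglap3, and lowest in TKO replicate 1, the library with the next most. Among basal keratinocyte markers 0 of 10 were called by edgeR (background 0.131% higher and 0% lower), with a median log2 fold change of 0.05, and Krt15, a keratin of basal cells, stood at a log2 fold change of -1.18 (adjusted p = 0.185 by edgeR and 0.00066 by DESeq2).

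The genes with the pattern most like that of Bglap3 were found by Pearson's r of log2(CPM + 0.1) over the 6 libraries, as a description over libraries that share the same 2 groups. The 4 reported here were Hsd11b1 on chromosome 1, an enzyme that regenerates active glucocorticoid, at 0.992, Robo3 on chromosome 9, an axon guidance receptor, at 0.989, and the long noncoding RNAs Gm13703 on chromosome 2 and Gm26640 on chromosome 6, both at 0.986. Hsd11b1 had 12, 4 and 1 counts in Ctrl and 57, 94 and 22 in TKO. Robo3 had 10, 4 and 0 counts in Ctrl and 90, 168 and 27 in TKO. Gm26640 had 13, 0 and 3 counts in Ctrl and 190, 429 and 54 in TKO. In each of the 4 genes TKO replicate 2 was highest and TKO replicate 3 the lowest of the TKO libraries, as in Bglap3. This shared order follows largely from choosing the genes by their r with Bglap3, so nothing is read from it.

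**Figure D5:**
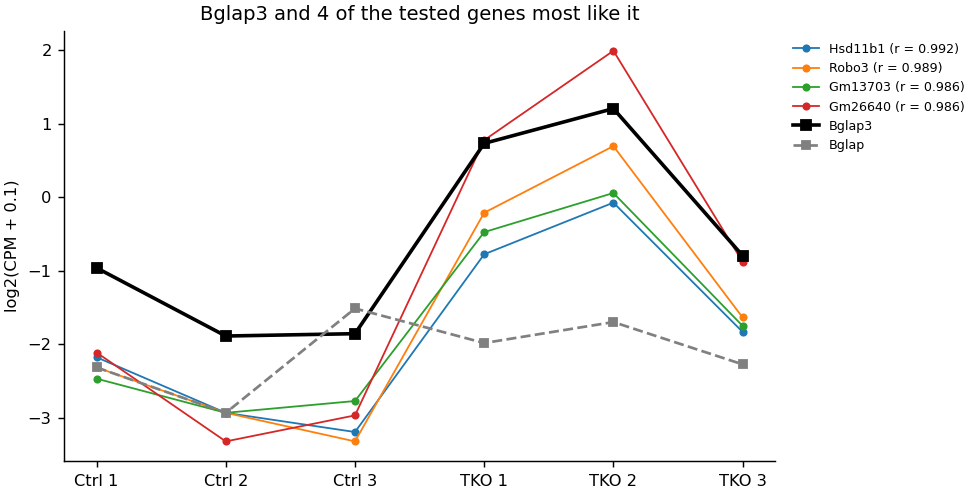
Log2(CPM + 0.1) of Bglap3 (black squares), Bglap (grey squares) and 4 of the tested genes with the highest Pearson's r with Bglap3, in each Ctrl and TKO library; lines join the libraries of a gene only to guide the eye. The 4 genes, chosen for their likeness to Bglap3, and Bglap3 are highest in TKO replicate 2 and, within TKO, lowest in replicate 3. Bglap is highest in Ctrl replicate 3.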

How the data were processed

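Cells were sorted and RNA-seq libraries made from 3 Ctrl and 3 TKO embryos. Reads were trimmed with fastp and aligned with STAR, per the labels, and the authors deposited raw counts per Ensembl gene and library, without normalization or pooling. The processing notes of the submitters name GRCm38 and the study's methods GRCm39, and the table holds gene identifiers without positions. Of 55536 identifiers, 51477 matched GENCODE vM39 on GRCm39, which gave symbols and positions. The counting program and its strand setting are not given in the sources used here. Other data of the study were not analysed here.

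The analysis used edgeR 4.0.16 under R 4.3.3. Genes were kept by filterByExpr (minimum count 10, minimum total count 15), scaled by TMM and tested with robust glmQLFit and glmQLFTest, two-sided, with Benjamini-Hochberg adjustment over 20622 genes. A gene was called at an adjusted p under 0.05 with a log2 fold change beyond 1 in either direction. Alternatives were DESeq2 1.42.0, other size factors and filters, non-robust fitting, the F or M letter or the replicate number as a factor, other thresholds and each library left out in turn. The members, lists and tests were chosen with earlier results of these data known. Named genes were the members, the targeted genes, protein-coding neighbours within 100 kb and genes over a member, the 3 highest and 3 lowest of the vitamin K, osteoblast and regulator lists, Ggcx, Vkorc1, Runx2, Sp7, Atf4, Vdr, the receptors and the 5 genes most like Bglap3, of which 1 is not reported here; markers of the label or of other cell types, Xist, and other genes of few counts or without overlap were named after their values were seen.

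Replicate numbers came from the labels. Deviations from the group means in log2(CPM + 0.1) correlated at 0.140 to 0.193 between samples of the same number and at -0.184 to 0.0189 between others. The numbers may therefore pair the samples, which the labels do not state. The main fit left the numbers out, and the block on them was an alternative. With edgeR's log CPM at a prior count of 2, the lowest correlation for a shared number was 0.0873. The scripts were tested on simulated data. Promoter sequences came from RefSeq (GRCm38.p6), with no entry used for Bglap2, and were aligned with Biopython 1.88 in Python 3.11.15.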

Additional observations from a re-analysis of the deposited data

How the results depend on the processing

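Bglap3 kept its direction under all 13 alternatives, with a log2 fold change between 2.01 (without TKO replicate 2) and 3.02 (without Ctrl replicate 1). The summed cluster kept its direction under 13, between 1.57 and 2.42. Nothing is read from this, since the cluster was chosen because Bglap3 was higher in TKO. For Bglap3 and the sum, each TKO library was above each Ctrl library, so leaving out a library could not reverse the direction. Bglap was not called under any of 12 alternatives (adjusted p 0.940 to 0.999997). Its log2 fold change, 0.29, ranged from -0.17 without Ctrl replicate 2 to 1.24 without Ctrl replicate 3 when a library was left out, and it did not pass a minimum of 10 counts in every library. For Bglap2 no fold change is given for any alternative, since its counts were under the floor in both groups. The vitamin K, osteoblast, regulator and neighbour lists had 0 genes called under each of 15 alternatives. With the replicate number as a block, the log2 fold change of Bglap3 was 2.34, and the block changed no call of Bglap or of the vitamin K, osteoblast, regulator and neighbour lists, but it raised the genes called from 27 to 45. For other genes and lists named here, calls under the block were not tabulated.

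The number of genes called over the whole table depended on the setting. It was 11 at an adjusted p under 0.01, 9 with at least 10 counts in every library, 214 with DESeq2 and 235 with no low-count filter. With a library left out it lay between 7 and 81, at 8, 7 and 8 without Ctrl replicates 1, 2 and 3, 15 without TKO replicate 2 and 81 without TKO replicate 3; the cause was not tested. The counts of Bglap2 and Bglap were at most 27 in any library, and what kept them low was not tested.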
